A study of Mus musculus with 12 samples.

Results

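The 10 genes described here encode factors and cofactors of the transcriptional circuit of mouse embryonic stem (ES) cells. Nanog, Pou5f1 (Oct4), Sox2, Klf4, Esrrb and Tfcp2l1 are the core factors of pluripotent cells. The cofactors Zfp281, Nacc1, Kat5 and Dmap1 work with them and are used in many other cell types. All 10 genes were chosen by symbol and are 10 of the 56748 genes counted in every library. The libraries were bulk RNA-seq of Lin-Sca+Kit+ (LSK) cells, the bone marrow fraction that holds haemopoietic stem cells and early progenitors, sorted as CD45.2+ donor cells from CD45.1 B6.SJL recipients aged 8 to 12 weeks. Every recipient was irradiated with 2 doses of 4.25 Gy given 3 h apart and received marrow of SCLtTA/BCR-ABL (DTG) mice, in which tetracycline (TET) keeps BCR-ABL1 off, and every recipient drank TET for the first 2 weeks. TET was then kept on in the 6 CTRL mice (BCR::ABL1-) and withdrawn for 2 weeks in the 6 CML 2wk mice (BCR::ABL1+). Both groups carry the transgenes, the transactivator is driven by regulatory elements of Scl (Tal1), so that expression is limited to the cells that use them, and the donor marrow was a pool, so the replicates are recipients and not donors. Per the labels all CTRL recipients were male and all CML 2wk recipients female, whereas the study's description says only that recipients of both sexes were used and that the donor pool held both. If the labels hold, recipient sex and BCR::ABL1 cannot be told apart in any difference below.

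Library totals were 22804754 to 41832868 counts in CTRL and 16150817 to 25070105 in CML 2wk, so that 3 counts equal 0.0717 to 0.132 CPM (counts scaled to the library total) in CTRL and 0.120 to 0.186 CPM in CML 2wk. These limits cover counting error only. As markers of the sorted fraction 10 genes of stem and progenitor cells were read, Kit, Ly6a (Sca-1), Ptprc (CD45) and Cd34 among them. All 10 had a median of at least 1 CPM in a group. So had 10 of 10 monocyte and 10 of 10 neutrophil markers, so this does not show the purity of the sort. The 10 sorted fraction markers summed to 3200 to 3621 CPM in CTRL and 1993 to 2481 CPM in CML 2wk. Of them 8 were called lower and 1 higher in CML 2wk (median log2 fold change -0.71), beside 29.0% lower and 30.6% higher over all tested genes. Mitochondrial genes took 0.816% to 1.29% of counts in CTRL and 2.26% to 2.97% in CML 2wk, and the part of this difference in the values below was not tested. In bulk libraries fewer cells of a type and less RNA per cell cannot be told apart.

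In ES cells OCT4 and SOX2 bind side by side on composite octamer and SOX elements, often with NANOG, and KLF4, ESRRB and TFCP2L1 keep the naive state under leukaemia inhibitory factor (LIF). The NANOG partner NACC1 and the zinc finger protein ZFP281 link the circuit to the NuRD deacetylase complex. KAT5 (TIP60) is the acetyltransferase of the TIP60-p400 complex and DMAP1 one of its subunits. Of the 6 core factors, KLF4 is also used in adult tissues, myeloid cells and epithelia among them. NANOG and OCT4 are largely confined to pluripotent and germ cells.

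Promoters of 5 core factors are shown because some belong to genes listed at or near 0 and others to genes that were measured. Those of Nanog and Sox2 also hold letters of the kind that OCT4 and SOX2 bind. The sequences are RefSeq's, build GRCm38.p6, of 300 bases each from 250 before to 50 after the start site, on the strand of the gene, and 9 of the 10 genes had an entry (13 promoters in all). Capitals mark the octamer core (ATGCAAA) and the SOX core (CATTGT) in Nanog and the octamer core in Sox2, the KLF core (GGGNGTG) and GC box (GGGCGG) in Pou5f1, the GC box in Klf4, and the KLF core and TATA box (TATAAA) in Tfcp2l1, each searched on both strands.
Nanog promoter 1 (chr6:122707239-122707538, plus strand): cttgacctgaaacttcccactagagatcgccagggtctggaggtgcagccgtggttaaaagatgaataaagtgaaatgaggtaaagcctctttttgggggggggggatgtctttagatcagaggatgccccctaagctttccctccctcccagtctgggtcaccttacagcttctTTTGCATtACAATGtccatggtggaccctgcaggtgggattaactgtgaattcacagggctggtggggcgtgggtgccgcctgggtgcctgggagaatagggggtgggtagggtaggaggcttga
Sox2 promoter (chr3:34649745-34650044, plus strand): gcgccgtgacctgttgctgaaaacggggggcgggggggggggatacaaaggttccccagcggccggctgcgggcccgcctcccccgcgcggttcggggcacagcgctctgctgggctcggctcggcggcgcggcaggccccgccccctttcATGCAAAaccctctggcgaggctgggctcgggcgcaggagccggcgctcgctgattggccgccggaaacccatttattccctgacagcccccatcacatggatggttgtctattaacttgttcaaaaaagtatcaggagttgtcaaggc
Pou5f1 promoter 1 (chr17:35505782-35506081, plus strand): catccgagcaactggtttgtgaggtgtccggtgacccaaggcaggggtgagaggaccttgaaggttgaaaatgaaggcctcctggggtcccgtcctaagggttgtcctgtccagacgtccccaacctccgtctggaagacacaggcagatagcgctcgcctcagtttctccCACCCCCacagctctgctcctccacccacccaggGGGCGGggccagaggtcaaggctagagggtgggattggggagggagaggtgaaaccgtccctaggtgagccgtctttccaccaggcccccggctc
Klf4 promoter (chr4:55532426-55532725, minus strand): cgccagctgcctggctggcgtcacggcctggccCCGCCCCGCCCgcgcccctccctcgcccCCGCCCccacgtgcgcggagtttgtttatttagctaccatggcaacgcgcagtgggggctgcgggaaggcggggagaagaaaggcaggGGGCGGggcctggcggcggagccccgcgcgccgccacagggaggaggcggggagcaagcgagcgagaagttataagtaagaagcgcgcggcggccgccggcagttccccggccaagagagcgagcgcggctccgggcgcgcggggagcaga
Tfcp2l1 promoter (chr1:118627695-118627994, plus strand): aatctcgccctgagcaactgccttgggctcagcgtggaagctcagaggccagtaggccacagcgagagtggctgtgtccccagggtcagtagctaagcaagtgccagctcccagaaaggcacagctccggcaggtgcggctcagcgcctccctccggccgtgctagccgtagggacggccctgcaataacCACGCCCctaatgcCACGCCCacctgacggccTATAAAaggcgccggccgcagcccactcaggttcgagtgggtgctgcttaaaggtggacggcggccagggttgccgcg

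In Nanog the reversed octamer core lies at -75 to -69 and the reversed SOX core at -67 to -62 from the start site, with 1 base between them. Of all 32851 promoters, 4.63% held an octamer core and 12.6% a SOX core. The octamer core was found in 3 of the 13 promoters, those of 2 members, Nanog and Sox2. The SOX core was found in 5 of the 13, those of 4 members, Nanog, Pou5f1 (its second promoter, not shown), Esrrb and Dmap1. A KLF core was found in 6 of the 13, those of 5 members, and in 29.2% of all promoters. Tfcp2l1 held 2 KLF cores upstream of its TATA box. A GC box was found in 5 of the 13, those of 5 members, and in 35.7% of all promoters. The letters AAGGTCA of the ESRRB core (4.72% of all promoters) and a pair of CCAG separated by 6 bases, the CP2 type to which TFCP2L1 belongs (3.44% of all promoters), were not in any of the 13 windows. The Klf4 window held 40 CpG dinucleotides, that of Sox2 27, that of Tfcp2l1 21, that of the upstream start of Pou5f1 11 and that of Nanog 4, against a median of 7 over all promoters. High CpG content thus occurred both in a gene listed at 0 in nearly every library (Sox2) and in a gene counted in all of them (Klf4).

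Of the 10 genes, 6 passed the filter on low counts (Klf4, Tfcp2l1, Zfp281, Nacc1, Kat5 and Dmap1) and 4 did not (Nanog, Pou5f1, Sox2 and Esrrb). All 6 tested genes were lower in CML 2wk by edgeR's quasi-likelihood test at an adjusted p under 0.05. The background was high: of 18438 genes tested, 29.0% were lower and 30.6% higher in CML 2wk, 59.5% in all, so a single call is a common event in this comparison. Their median log2 fold change (CML 2wk over CTRL) was -0.63, beside 0.07 over all tested genes. In 4 of the 6 the libraries of the groups did not overlap, and over all tested genes 20.6% lay lower in CML 2wk without overlap.

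Nanog, the homeobox factor at the centre of the ES cell circuit, had 0 counts in all 12 libraries. Nanog-ps1 and Nanog-ps2, pseudogenes that could take its reads, were also at 0. Pou5f1 had 1 count each in CTRL 1 and CTRL 3 and none in the other libraries. Esrrb, an orphan nuclear receptor, had 3 counts in CTRL 3 and none elsewhere. For these 3 genes no library was above 3 counts, and a difference between the groups was not detectable at this depth. Thinned to the smallest library, 0.97 CTRL libraries would be expected to show Pou5f1 and 0.928 to show Esrrb. Part of Pou5f1 (317 exon bases in GENCODE M21) overlaps Gm19553 on the opposite strand, and since the strand setting of the counting is not given in the sources used here, its 2 counts cannot be assigned to a strand.

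Sox2 had 0 counts in all 6 CTRL libraries and in 5 of the 6 CML 2wk libraries, and 37 counts (1.58 CPM) in CML 2wk replicate 2. The gene was thus seen in 1 library and not in the group. Without the filter on low counts Sox2 passed the edgeR test as higher in CML 2wk (adjusted p = 0.0391), on the counts of that library alone. The same library stood apart in genes of connective tissue, as described further on.

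Klf4, a zinc finger factor that is active in monocytic cells as well as in ES cells, was the more abundant per length of the 2 core factors that were measured. Its lowest, median and highest levels were 5.32, 8.99 and 12.5 CPM in CTRL and 1.30, 1.94 and 6.08 CPM in CML 2wk. The highest CML 2wk libraries were replicates 2 and 4 (3.85 CPM), and only replicate 2 reached into the CTRL range, where CTRL 6 was lowest. The fitted level was 3.29-fold lower in CML 2wk (log2 fold change -1.72 ± 0.36 (SE), n = 6 and 6, adjusted p = 0.000775). Without CML 2wk replicate 2 it was 4.40-fold lower (adjusted p = 1.26e-05), and without replicates 2 and 4 it was 5.55-fold lower (adjusted p = 1.36e-06). As these were its highest CML 2wk libraries, leaving them out deepens the fall by construction.

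Tfcp2l1, a CP2-type factor that keeps naive pluripotency downstream of LIF and STAT3, moved by a like amount at a lower level. It ranged over 4.04, 7.42 and 13.5 CPM (lowest, median and highest) in CTRL and 0.796, 2.32 and 4.02 CPM in CML 2wk. The groups did not overlap, but CTRL 6 and CML 2wk replicate 2 were nearly level, and CTRL 1 stood highest by counts as well (553). The counts behind the CML 2wk values were low, from 13 to 94 per library. The fitted level was 3.31-fold lower in CML 2wk (log2 fold change -1.73 ± 0.33 (SE), n = 6 and 6, adjusted p = 0.000393). Of its exons 130 bases are shared with Gm23497, a small gene on the same strand.

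Nacc1, the BTB/POZ protein of the NANOG interactome, was the most abundant of the 10 genes and had the lowest adjusted p among them. It ranged over 189, 222 and 234 CPM (lowest, median and highest) in CTRL and 108, 122 and 148 CPM in CML 2wk. Every CML 2wk library lay below every CTRL library with a wide gap between the groups. The fitted level was 1.74-fold lower (log2 fold change -0.80 ± 0.08 (SE), n = 6 and 6, adjusted p = 1.31e-06).

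Zfp281, a zinc finger repressor and activator of ES cell genes, changed little. It ranged over 58.9, 62.3 and 69.4 CPM in CTRL and 46.8, 51.3 and 67.9 CPM in CML 2wk. Only CML 2wk replicate 2 lay inside the CTRL range, and the other 5 were below it. The fitted level was 1.18-fold lower (log2 fold change -0.24 ± 0.08 (SE), n = 6 and 6, adjusted p = 0.0208). The call was lost when libraries were scaled by their upper quartile (log2 fold change -0.17, adjusted p = 0.0715), which shifts the median of all genes from 0.07 to 0.14.

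Kat5, the acetyltransferase, was the most even of the 10 genes among replicates. It ranged over 41.9, 43.3 and 45.2 CPM in CTRL and 34.5, 37.7 and 38.7 CPM in CML 2wk. The groups did not overlap, although the fitted level was only 1.16-fold lower in CML 2wk (log2 fold change -0.22 ± 0.05 (SE), n = 6 and 6, adjusted p = 0.00236). Kat5 shares 426 exon bases with Rnaseh2c on the opposite strand, and reads from the shared part cannot be assigned between the genes without strand.

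Dmap1, which joins KAT5 in the complex and also binds the DNA methyltransferase DNMT1, ranged over 23.0, 24.9 and 25.4 CPM in CTRL and 12.9, 18.5 and 21.4 CPM in CML 2wk. The groups did not overlap, and CML 2wk replicates 3 and 6 were lowest. The fitted level was 1.36-fold lower (log2 fold change -0.45 ± 0.11 (SE), n = 6 and 6, adjusted p = 0.00328).

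**Figure D1:**
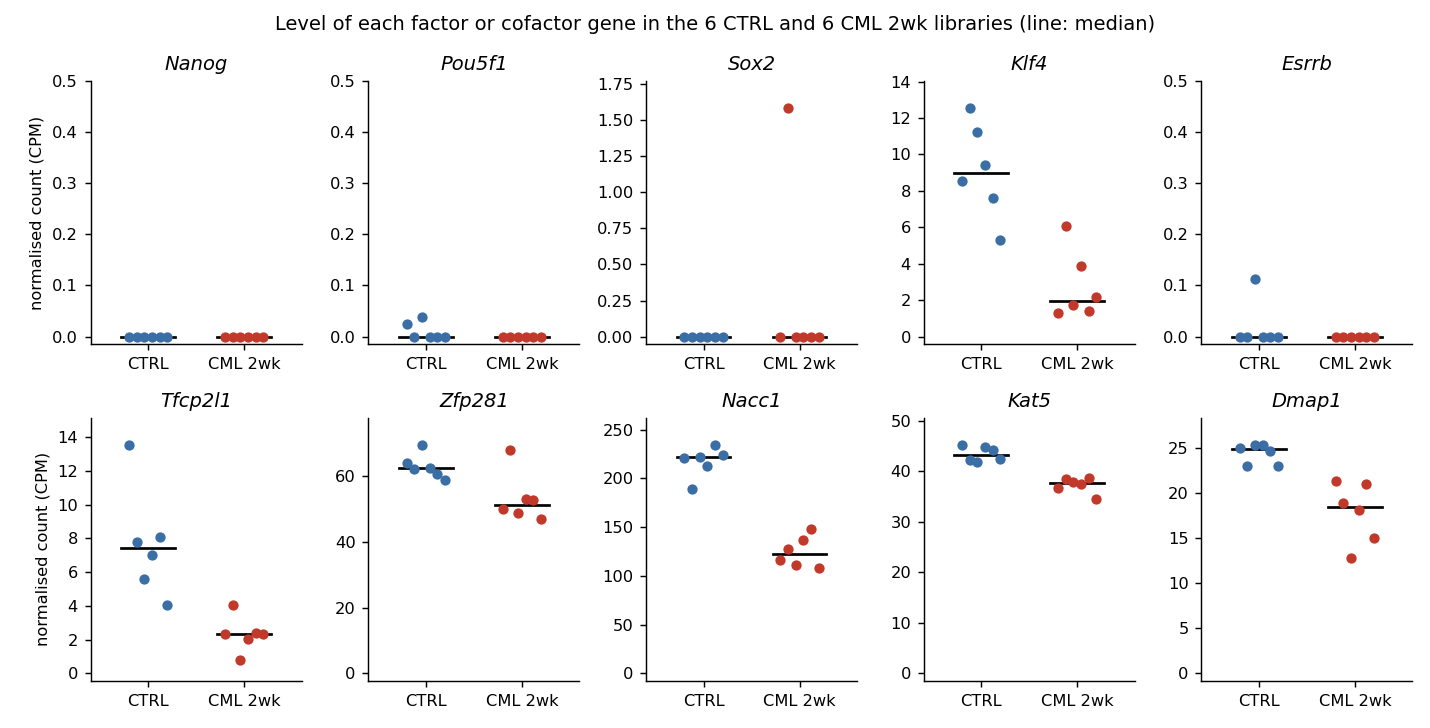
Normalised count (CPM, linear axis that differs between panels) of each of the 10 genes in the 6 CTRL (blue) and 6 CML 2wk (red) libraries, with a line at the median of each group. Nanog is at 0 throughout, Sox2 is seen only in CML 2wk replicate 2 at 1.58 CPM, and Klf4 and Zfp281 overlap between groups through that same library.

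Per kilobase of exon, the scale on which genes can be compared with each other, the order of median levels in CTRL was Nacc1 (51.5 CPM per kb), Zfp281 (12.6), Kat5 (12.3), Dmap1 (9.45), Klf4 (2.95) and Tfcp2l1 (0.786), followed by the 4 genes with a median of 0. Zfp281 and Kat5 did not differ beyond their spread, and the ranges of the other neighbours down to Tfcp2l1 did not overlap. In CML 2wk the order was Nacc1 (28.4 CPM per kb), Kat5 (10.7), Zfp281 (10.4), Dmap1 (7.02), Klf4 (0.637) and Tfcp2l1 (0.246), again with overlap between Kat5 and Zfp281 only. The cofactors were thus the more abundant set in both groups. Exon lengths are those of GENCODE M21, which need not be the annotation used for counting.

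Relative to the mean, the spread between replicates was wider in CML 2wk for all 6 genes. In CPM the SD was smaller in CML 2wk for Klf4 (1.87 against 2.58 in CTRL) and Tfcp2l1 (1.03 against 3.24). The coefficient of variation of Klf4 was 28.3% in CTRL and 67.9% in CML 2wk, and that of Dmap1 was 4.49% and 18.9%. For Tfcp2l1 the groups were close to each other at 42.2% and 44.7%, and for Kat5 at 3.30% and 4.12%. Across all genes the biological coefficient of variation was 10.8% in CTRL and 32.4% in CML 2wk.

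The complexes of the cofactors were examined as lists, chosen with earlier results of these data known. All 18 listed genes of the TIP60-p400 complex were tested, of which 11 were lower, 5 higher and 2 passed in neither direction (median log2 fold change -0.20, beside 0.07 over all genes). The 11 that fell include Kat5 and Dmap1 themselves. The largest falls were those of Ep400, the ATPase of the complex (log2 fold change -0.68, adjusted p = 3.28e-07), and Trrap, its scaffold (-0.68, adjusted p = 5.01e-07). The genes that rose were led by Morf4l2 (0.59, adjusted p = 5.65e-06) and Ruvbl2 (0.56, adjusted p = 0.000112), an MRG chromodomain-family protein and an AAA+ helicase. Actl6a, Morf4l1 and Yeats4 rose as well, while Ruvbl1 and Mbtd1 gave log2 fold changes of 0.02 and -0.10 that did not pass. By level the complex was led by Ep400, Trrap and Morf4l1, with CTRL medians of 468, 346 and 244 CPM and CML 2wk medians of 294, 217 and 333 CPM. Subunits of one complex were thus called in both directions, 61.1% lower and 27.8% higher, beside 29.0% and 30.6% over all tested genes. The share called higher is near that of all genes, so a split of this kind is no trait of the complex.

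Of 14 NuRD genes, all tested, 9 were lower, 3 higher and 2 passed in neither direction (median log2 fold change -0.48). The helicase subunits Chd3 (log2 fold change -1.13, adjusted p = 4.82e-07) and Chd4 (-0.97, adjusted p = 2.59e-07) fell most, and Chd4 was the most abundant NuRD gene (medians of 926 CPM in CTRL and 488 CPM in CML 2wk). All 3 MTA subunits fell, Mta3 by 0.78 on the log2 scale (adjusted p = 1.59e-07). The histone chaperone subunit Rbbp4 rose (log2 fold change 0.71, adjusted p = 1.76e-05) from a median of 393 to one of 643 CPM. Rbbp7 (0.19, adjusted p = 0.0432) was the least firm of the calls, lost under 11 of 19 alternatives. The deacetylase genes split in the main fit, with Hdac1 higher (0.24, adjusted p = 0.0183) and Hdac2 lower (-0.16, adjusted p = 0.0242). Without the filter on low counts, and with replicates 1 to 5 of both groups only, 1 NuRD gene was higher, Rbbp4. The call of Hdac1 was thus lost there.

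**Figure D2:**
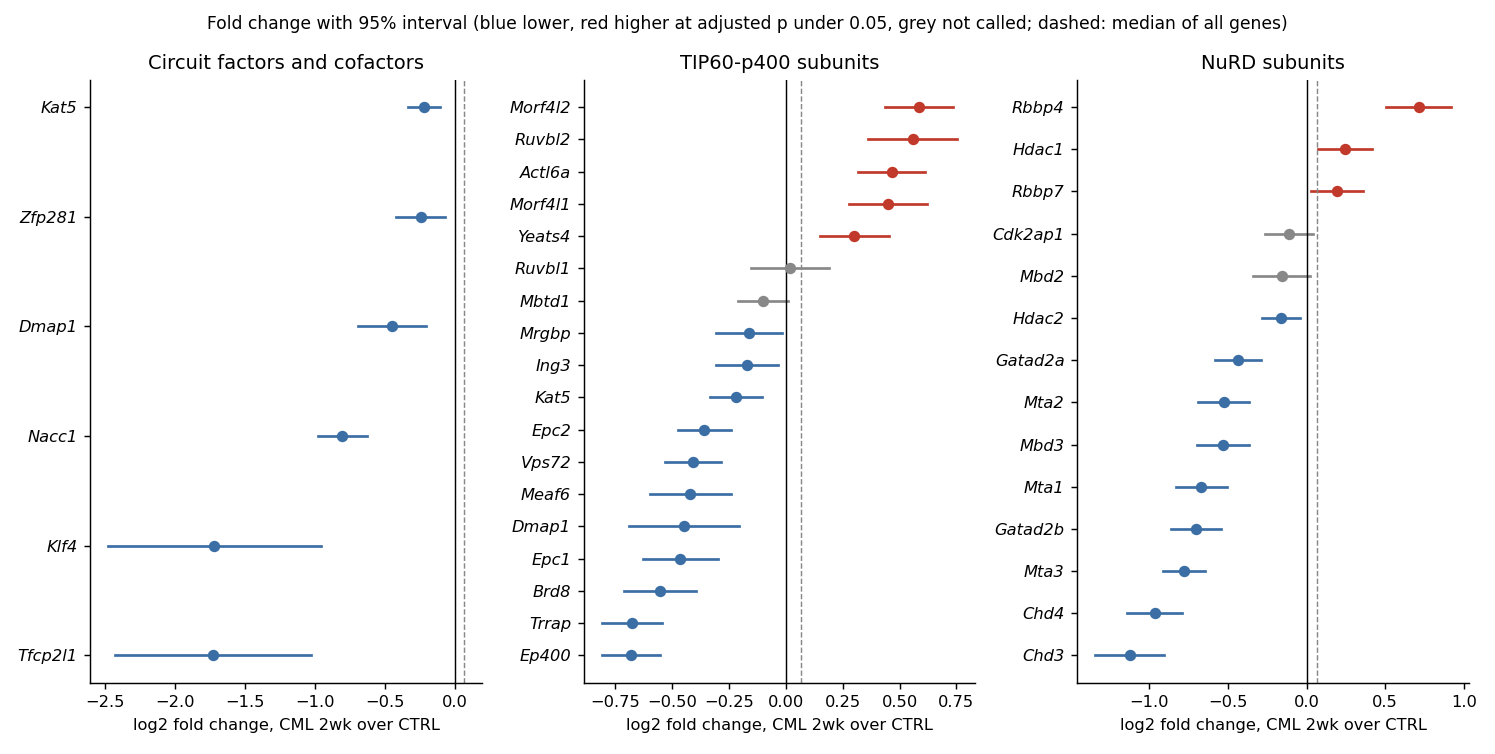
Log2 fold change (CML 2wk over CTRL) with its 95% interval for the 6 tested circuit genes, the 18 TIP60-p400 genes and the 14 NuRD genes, with blue for genes called lower, red for genes called higher, grey for genes not called, a solid line at 0 and a dashed line at the median of all genes (0.07). Klf4 and Tfcp2l1 lie farthest to the left with wide intervals, Nacc1 and the NuRD helicase genes have narrow ones, and the horizontal scales differ between panels.

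Paralogs were read to see which genes of each family were measured in LSK cells. In the KLF family 14 of 17 genes were tested, of which 10 were lower, 0 higher and 4 passed in neither direction (median log2 fold change -0.69), and under upper-quartile scaling 10 were lower and 1, Klf9, was higher. Klf4 ranked low within it. Klf13 and Klf10 were the highest per length in CTRL (medians of 21.3 and 19.6 CPM per kb), against 2.95 for Klf4. The falls of Klf1, the erythroid KLF (log2 fold change -2.35, adjusted p = 1.08e-06), and Klf12 (-1.81, adjusted p = 5.33e-05) were the largest beside that of Klf4, followed by Klf11 (-1.23, adjusted p = 1.20e-06). Klf2, which with Klf4 and Klf5 forms the set that can replace one another in ES cells, fell (-1.01, adjusted p = 0.0233) but not without CTRL 2 (adjusted p = 0.0708) or without CML 2wk replicate 1 (adjusted p = 0.0501). Klf5 gave 0.37 (adjusted p = 0.608), with the highest value again in CML 2wk replicate 2, and was lower in CML 2wk without replicates 2 and 4 (-1.30, adjusted p = 0.00267). Of the rest, Klf3, Klf8, Klf10, Klf13 and Klf16 fell, by 0.40 to 0.81 on the log2 scale, and Klf6, Klf7 and Klf9 gave -0.38, 0.09 and 0.55 without passing. Klf6 passed as lower without CML 2wk replicate 2 (-0.64, adjusted p = 0.000313) and with the replicate number as a block (adjusted p = 0.0130), and Klf9 passed as higher without CML 2wk replicate 4 (adjusted p = 0.0283) or 6 (adjusted p = 0.0462). The call of Klf13 was lost with replicates 1 to 5 of both groups only (adjusted p = 0.0539).

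In the SOX family 6 of 20 genes were tested, of which 5 were lower and 0 higher (median log2 fold change -0.92). Without the filter on low counts 17 were tested, of which 5 were lower and 6 higher (Sox2, Sox7, Sox9, Sox11, Sox15 and Sox21, median of all 17 -0.21), and by DESeq2 2 were higher (Sox9 and Sox15). Within CML 2wk, Sox2, Sox7, Sox9, Sox11 and Sox21 had counts in replicates 2 and 4 at most and 0 in the rest. Their calls, that of Sox9 by DESeq2 included, thus describe those libraries and not the group. Sox15, at medians of 0.229 CPM in CTRL and 0.627 CPM in CML 2wk, was also called higher in 7 of the fits that left out 1 library, among them each of those without a CTRL library. In those fits the filter asks for fewer libraries than in the main fit, which did not test Sox15. Their calls are therefore no independent support for a rise. Sox4, a regulator of lymphoid and stem cells, was the SOX gene that LSK cells used most, with medians of 88.5 CPM per kb in CTRL and 44.2 in CML 2wk. It fell by 0.95 on the log2 scale (adjusted p = 2.07e-07). Sox6 fell most (-1.92, adjusted p = 2.11e-08), from a median of 31.8 to one of 8.48 CPM, and Sox12 (-0.88, adjusted p = 1.37e-05) and Sox13 (-0.50, adjusted p = 0.0183) fell as well, the last not with replicates 1 to 5 of both groups only (adjusted p = 0.0518). Sox18, an endothelial factor (-1.49, adjusted p = 0.0259), had a CML 2wk median of 0.187 CPM. It lost its call without CTRL 5 and without CML 2wk replicate 1 or 6 (adjusted p from 0.0502 to 0.0528). With replicates 1 to 5 of both groups only, Sox18 was lost as well (adjusted p = 0.0765). Sox5 gave -0.13 and did not pass. No gene of the SoxB1 group to which Sox2 belongs was measurable outside the 1 library, with Sox1 at 0 in all libraries and Sox3 at 2 counts in all CTRL libraries together.

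In the POU family 4 of 15 genes were tested, 3 lower and 1 higher. Pou2f1 (Oct1), the widely used octamer-binding factor, was the highest per length with a median of 7.91 CPM per kb in CTRL and fell (log2 fold change -0.84, adjusted p = 1.36e-07). Pou2f2 (Oct2), its lymphoid paralog, fell (-0.62, adjusted p = 0.000278), as did Pou6f1 (-1.56, adjusted p = 0.00271). Pou5f2, which shares its POU class with Pou5f1, rose (0.69, adjusted p = 0.00364) at low levels, from a median of 2.02 to one of 3.34 CPM. The most abundant POU genes were thus those of the POU2 class, and both were lower.

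Esrra was the single oestrogen-related receptor gene tested of 3, and it rose (log2 fold change 0.34, adjusted p = 0.000335) from a median of 28.8 to one of 35.9 CPM without overlap between groups. Among CP2 and grainyhead genes 3 of 4 tested were lower. Next to Tfcp2l1 these were Ubp1 (-0.59, adjusted p = 1.60e-06), the most abundant of them at a median of 112 CPM in CTRL, and Tfcp2 (-0.23, adjusted p = 0.0161). The call of Tfcp2 was lost under upper-quartile scaling (adjusted p = 0.0951) and with the replicate number as a block (adjusted p = 0.0557). It was also lost with replicates 1 to 5 of both groups only (adjusted p = 0.0582). Grhl1 gave 0.53 and did not pass, but passed as higher without CML 2wk replicate 2 (0.72, adjusted p = 0.00745). Of 6 paralogs of the cofactors 5 were lower and 1 higher. Kat6a, Kat7 and Kat6b, MYST acetyltransferases like KAT5, fell by 1.04, 0.66 and 0.56 on the log2 scale, each more than Kat5 did by value, and the difference between them was not tested. Kat8, of the same family, rose (0.33, adjusted p = 0.00927), a call lost without the filter on low counts (adjusted p = 0.0514). Nacc2 fell (-0.48, adjusted p = 0.0194), and Zfp148, the paralog of Zfp281, fell slightly (-0.18, adjusted p = 0.0140), a call lost under upper-quartile scaling (adjusted p = 0.0778).

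**Figure D3:**
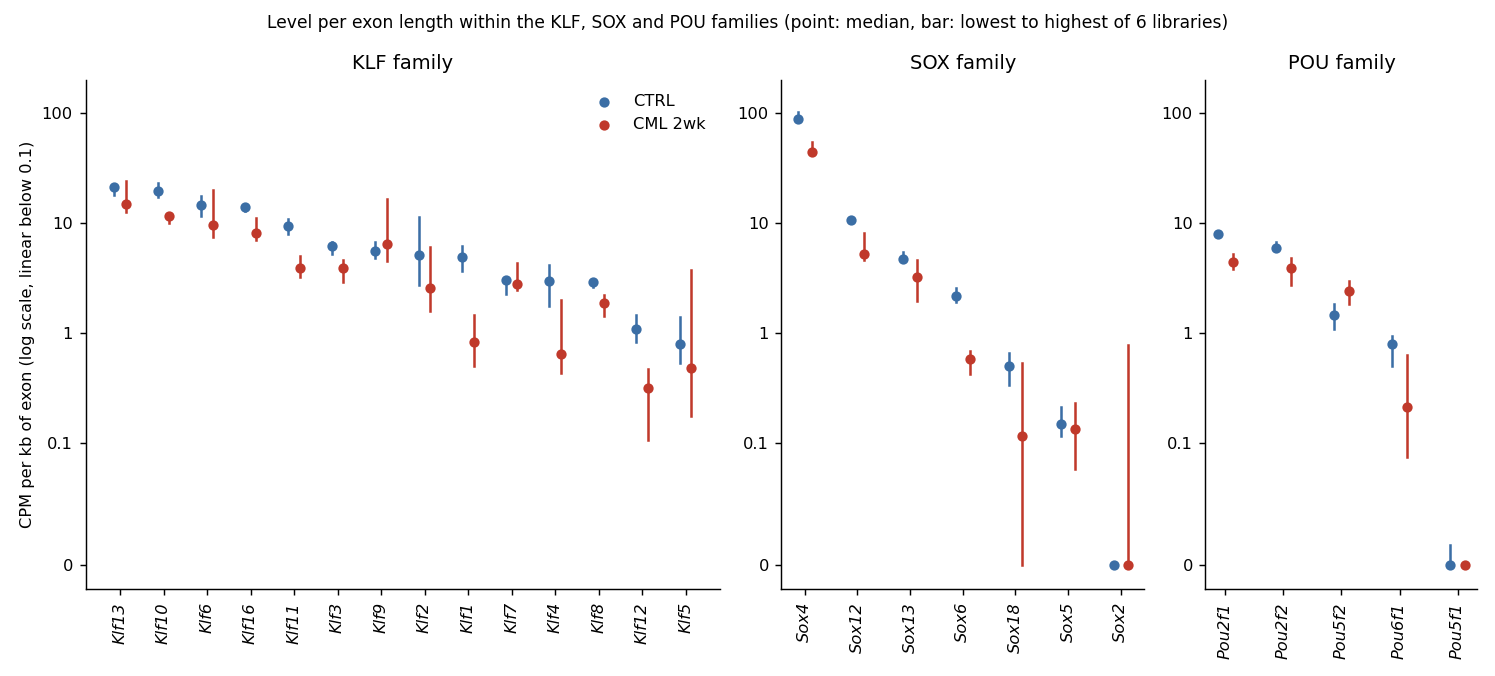
Level per kilobase of exon (CPM per kb, log axis that is linear below 0.1) of the tested KLF, SOX and POU genes and of Sox2 and Pou5f1, as the median (point) and the lowest to highest of 6 libraries (bar) in CTRL (blue) and CML 2wk (red). Klf4 sits below Klf13 and Klf10, Sox4 is the highest SOX gene, and the bar of Sox2 in CML 2wk stands for 1 library.

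CML 2wk replicate 2, the library with Sox2 counts, held the highest level of 13 of 16 stromal marker genes. The summed level of these 16 markers was 184 to 225 CPM in CTRL. In CML 2wk it was 3133 CPM in replicate 2, 663 CPM in replicate 4 and 108 to 147 CPM in the other 4, with 10 of the 16 markers at a median of at least 1 CPM in either group. Further SOX genes followed the same order. Sox9 had 288 counts (12.3 CPM) in replicate 2, 76 in replicate 4 and at most 2 in any of the other 10 libraries. Sox11 had 441 counts (18.9 CPM) in replicate 2, 110 in replicate 4 and at most 6 elsewhere, and Sox7 had 57, 2 and 0. Replicate 2 was also the highest CML 2wk library for Klf4, Klf5, Tfcp2l1 and Zfp281, and replicate 4 the next for Klf4 and Klf5. Its part in the values of these genes was not tested beyond leaving the 2 libraries out, under which all 6 tested genes kept a lower call. For Klf4, Tfcp2l1 and Zfp281 leaving out their highest CML 2wk library lowers the CML 2wk level by construction. The kept calls of these genes are therefore no check on the fall.

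**Figure D4:**
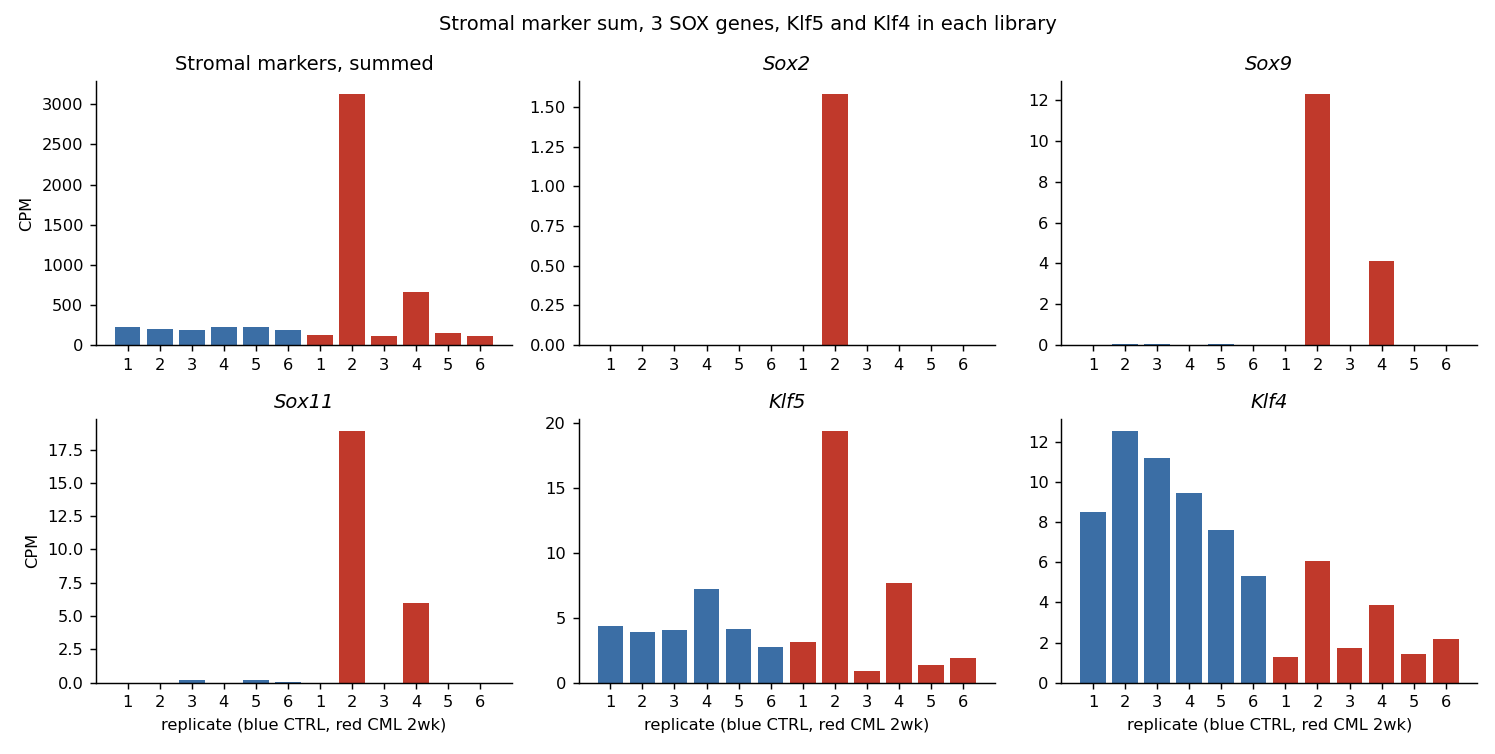
CPM of the summed stromal markers, Sox2, Sox9, Sox11, Klf5 and Klf4 in each library (bars from 0, blue CTRL 1 to 6, red CML 2wk 1 to 6, with a separate scale for each panel). CML 2wk replicate 2 is the highest CML 2wk library in all 6 panels and the only one with Sox2, and replicate 4 is the next in every panel where it has counts.

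Other cell types that an LSK gate could let through were summed in the same way. Monocyte and macrophage markers, relevant to Klf4, summed to 528 to 705 CPM in CTRL and 485 to 814 CPM in CML 2wk (10 of 10 markers at a median of at least 1 CPM, led by Lyz2). The list was mixed, with 4 genes higher (Cd14, Ccr2, Fcgr1 and Ms4a6c), 2 lower (Mpeg1 and Cx3cr1) and 4 that did not pass. Erythroid and megakaryocyte markers summed to 275 to 380 CPM in CTRL and 92.7 to 302 CPM in CML 2wk. Of 11 tested 9 were lower, and Itga2b was the most abundant. Endothelial markers summed to 207 to 246 CPM in CTRL and 139 to 166 CPM in CML 2wk, with 3 of 8 lower. Pecam1, the most abundant of them, was not called (log2 fold change -0.05, adjusted p = 0.597). Mast cell and basophil markers summed to 116 to 226 CPM in CTRL and 447 to 2597 CPM in CML 2wk. Of 10 tested 7 were higher and 1 lower, and Cpa3 was the most abundant. Neutrophil markers summed to 291 to 2842 CPM in CTRL, highest in CTRL 4, and 448 to 1191 CPM in CML 2wk. Of these 10 markers 4 were lower (Ngp, Camp, Ltf and S100a9) and 1, Elane, the most abundant, was higher, with a median log2 fold change of -1.32. B cell markers summed to 435 to 778 CPM in CTRL and 29.4 to 366 CPM in CML 2wk, with 2 of 10 lower and 0 higher. Ighm, the most abundant of them, did not pass (-1.38, adjusted p = 0.0704), but passed as lower without CML 2wk replicate 2 (adjusted p = 0.00777). T and NK cell markers summed to 76.6 to 100 CPM in CTRL and 87.1 to 193 CPM in CML 2wk. Of 8 tested 2 were higher and 2 lower, and Nkg7 was the most abundant. No marker of these lists was at 0 in all libraries. The part of these cell types in the levels of the 10 genes was not tested.

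Genes that mark or depend on the pluripotent state were largely unread. Of 34 listed, 11 had 0 counts in all 12 libraries, among them Zfp42 (Rex1), Dppa3, Fgf4, Nr0b1, Sall4 and Prdm14, and 15 had at most 3 counts in every library. Only 9 passed the filter, of which 5 were lower and 0 higher. Dnmt3l, a DNA methyltransferase cofactor, was under the filter, with medians of 0.334 CPM in CTRL and 1.25 CPM in CML 2wk and 5 of 6 CML 2wk libraries above every CTRL library. It passed as higher under 10 of 19 alternatives, each fit without 1 CTRL library among them (adjusted p from 3.92e-05 to 0.00497). The filter asks for as many libraries as the smaller group holds. Fits with a library left out therefore admitted Dnmt3l through the CML 2wk libraries where it was high, and are no independent support for a rise. Tdgf1 passed as higher without the filter (adjusted p = 0.00321) and by DESeq2 (adjusted p = 0.000514). Tet1, a DNA demethylase, and Mycn, at CTRL medians of 153 and 70.5 CPM, fell by 1.20 (adjusted p = 3.36e-07) and 1.62 (adjusted p = 1.16e-05) on the log2 scale. Klf2, Zfp57 (-0.96, adjusted p = 0.00912) and Lefty1 (-0.78, adjusted p = 0.00328) were lower as well. Gdf3 (0.04), Lin28a (0.38), Gbx2 (-0.27) and Klf5 did not pass.

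The factors mapped in ES cells along with these 10, such as E2F1, MAX and STAT3, were mostly measured: 9 of 11 were tested, 7 were lower and 0 higher (median log2 fold change -0.52). Beside Mycn, these were led by Ctr9 (-0.71, adjusted p = 7.16e-05), Kat2a (-0.62, adjusted p = 7.16e-06) and Stat3 (-0.57, adjusted p = 6.92e-05). Zfx gave -0.12 and did not pass (adjusted p = 0.0757), but passed as lower under 4 of 19 alternatives, those without CML 2wk replicate 2 (adjusted p = 0.0438) or 6 (adjusted p = 0.0325) among them. Of 15 genes of the LIF and bone morphogenetic protein (BMP) inputs to the circuit 14 were tested, of which 5 were higher and 5 lower (35.7% each way, beside 30.6% and 29.0% over all genes). The ligand Lif rose (log2 fold change 3.34, adjusted p = 0.000149) from a median of 0.612 to one of 4.43 CPM, and so did Socs3, the feedback inhibitor of LIF signalling (2.44, adjusted p = 7.67e-08), from 6.61 to 35.1 CPM. The LIF receptor gene Lifr was higher (1.33, adjusted p = 0.000479), whereas the kinase and factor genes Jak1 (-0.54, adjusted p = 2.18e-05) and Stat3 were lower. Id1, a target of BMP signals, rose (2.95, adjusted p = 4.82e-07), whereas Smad5 fell (-0.55, adjusted p = 1.45e-06). The call of Bmpr1a (3.52, adjusted p = 0.00529) rested on CML 2wk replicates 2 and 4 and was lost without them (0.31, adjusted p = 0.470). Transcripts of genes that serve LIF signalling in ES cells were thus read in LSK cells while Nanog, Pou5f1 and Esrrb were at or near 0. Whether LIF signals in these cells was not tested.

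The study's table of ES cell binding was used to describe genes bound by each factor. It does not hold all genes bound in ES cells: it holds ES cell signature genes that the study had chosen because they differed between CML and normal human primitive cells, with the binding marks of ES cells added, and then kept by their correlated expression in BCR::ABL1+ cells. The study built such gene sets on human CML cells and on mouse BCR::ABL1+ marrow cells. The shares below therefore describe a chosen set and are no independent evidence of its direction. Of its genes 1234 matched the count tables and 1218 were tested, of which 591 (48.5%) were higher and 334 (27.4%) lower in CML 2wk, with a median log2 fold change of 0.19, beside 30.6% higher, 29.0% lower and 0.07 over all tested genes. The lists of single factors overlap each other, so they are described and not tested. Genes bound by Dmap1 had the largest share called higher, 180 of 323 (55.7%, median 0.35), and 70 were lower. For Kat5 74 of 147 were higher and 41 lower (median 0.21), for Esrrb 219 and 117 of 435 (0.20), and for Tfcp2l1 253 and 152 of 531 (0.19), all near the whole table. For Klf4 97 of 208 were higher and 66 lower (median 0.16), for Pou5f1 42 and 33 of 94 (0.11), and for Sox2 30 and 24 of 76 (0.09). For Nanog 56 of 136 were higher and 53 lower (median 0.05), and for Nacc1 31 and 27 of 78 (0.05). Zfp281 was the single factor with more bound genes lower than higher, 23 against 19 of 58 (median -0.06). Of the 10 genes themselves only Zfp281 is in the table, where it is marked as bound by none of the 10 factors. Of the TIP60-p400 and NuRD genes 13 are in the table, 10 of them bound by at least 1 of the 10 factors. Of these 10, 4 were higher (Ruvbl2, Actl6a, Yeats4 and Rbbp7), 5 lower (Brd8, Mta2, Gatad2a, Ing3 and Hdac2) and 1, Cdk2ap1, passed in neither direction.

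**Figure D5:**
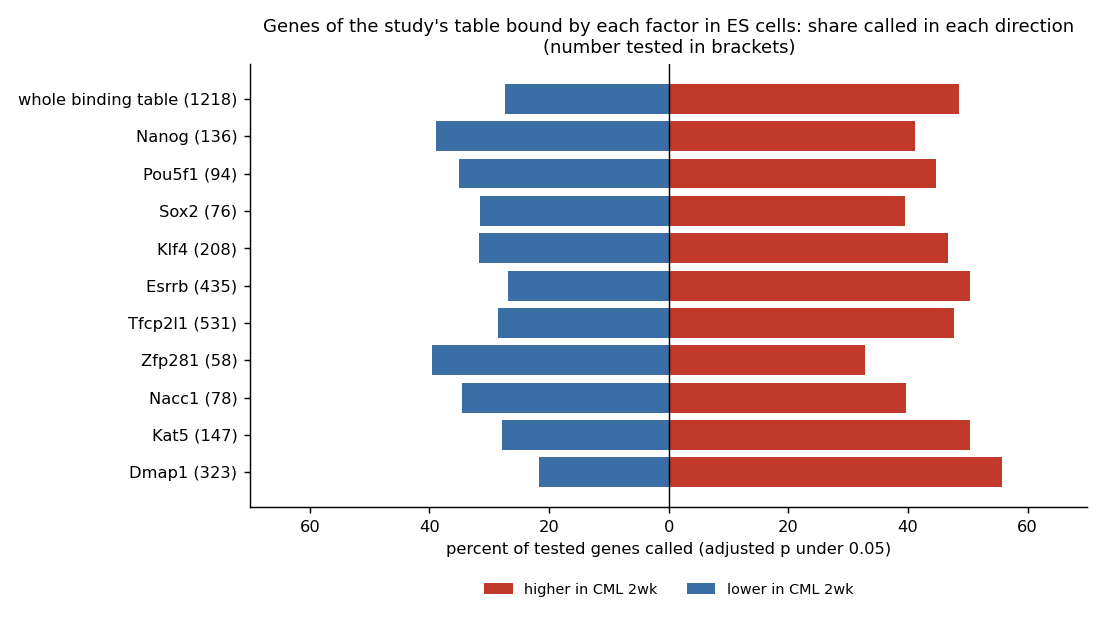
Percent of tested genes called higher (red, to the right) or lower (blue, to the left) in CML 2wk among the genes of the study's table that are bound by each factor in ES cells, with the number tested in brackets and the whole binding table in the top bar. The share called higher runs from 32.8% for Zfp281 to 55.7% for Dmap1, beside 48.5% in the whole table.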

How the data were processed

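The data are gene counts of 12 bulk RNA-seq libraries (Kapa RNA HyperPrep) of sorted LSK cells, 6 CTRL and 6 CML 2wk, grouped by the labels' titles. The counts were deposited by the authors as raw whole-number counts per Ensembl gene and library, with no normalisation. The submitters' processing notes name FastQC 0.11.9, fastp 0.23.2, STAR 2.7.10a, featureCounts 2.0.1, DESeq2 1.36.0 and GRCm39, whereas the study's methods name another trimmer and aligner. The annotation release, the use of strand and how reads with several alignments were counted are not given in the sources used here, and each affects genes that overlap or have close copies. Symbols and exon lengths came from GENCODE M21 (GRCm38) by Ensembl identifier, which matched 52073 of 56748 entries. Promoters came from RefSeq.

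Counts were filtered with filterByExpr, scaled by TMM factors and compared with edgeR 4.0.16 (R 4.3.3, quasi-likelihood test, 12 libraries, group as the single term), with Benjamini-Hochberg adjustment over 18438 genes and a threshold of 0.05. Levels are CPM of TMM-scaled totals. A library's limit is 3 counts. The test was checked on simulated counts. Alternatives were DESeq2 1.42.0, other scaling factors, no filter on low counts, the replicate number as a block, and libraries left out. The pair of libraries closest to each other within a group differed by more than sampling noise (chi-square per degree of freedom 3.78), so no library was counted as a duplicate.

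Named genes were all 10 members, and of each list up to 4 called genes with the largest change, up to 3 with the highest level, and every paralog of at least 1 CPM in either group. Marker lists of other cell types were summed. Other genes named (subunits and list members outside this rule) were chosen after their values were seen. The members and the lists were chosen with earlier results of these data known.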

Additional observations from a re-analysis of the deposited data

Results flagged for a closer look

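Among the members and the marker sums, 33 groups of 6 libraries with any spread were searched. A library far from the other 5 by Dixon's gap was found in 7 of them. The cut passes about 1 in 20 groups of normal, unrelated values. These groups share libraries, and for Sox2 and Esrrb, with all other libraries of the group at 0, any count passes. The 7 were therefore not set against that rate. In CML 2wk replicate 2 these were Sox2 (1.58 CPM, the next library at 0), Zfp281 (67.9 CPM, next 53.0), and the summed stromal (3133 CPM, next 663), mast cell and basophil (2597 CPM, next 1059) and erythroid and megakaryocyte markers (302 CPM, next 149). Esrrb stood apart in CTRL 3 on 3 counts (0.112 CPM, the others at 0). The neutrophil marker sum of CTRL 4 was 2842 CPM, with the next CTRL library at 755. What set these libraries apart was not tested.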

How the results depend on the processing

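The count of members called lower was 6 under 18 of 19 alternatives and 5 with upper-quartile factors, and without the filter on low counts Sox2 was called higher besides. The members' log2 fold changes ran from -2.47 to -1.58 for Klf4, -1.97 to -1.49 for Tfcp2l1, -0.88 to -0.73 for Nacc1, -0.52 to -0.37 for Dmap1, -0.29 to -0.14 for Kat5 and -0.36 to -0.17 for Zfp281. Of 532 counts of calls over all genes and lists, 530 stayed within 1.5 times. The SOX family moved to 11 calls without the filter, under which 17 of its genes were tested and the 6 added calls were all higher, and to 3 calls with replicates 1 to 5 of both groups only, a fit on fewer libraries. All the added calls but that of Sox15 rested on counts of CML 2wk replicates 2 and 4. Without CML 2wk replicates 2 and 4, Klf5 (-1.30) and the stromal gene Fn1 (-4.28) passed as lower, after values of 0.37 and 3.55 with them that did not pass. Of 72 named genes tested, 55 kept their call and direction throughout. With one library left out, the calls ran from 10185 to 12007 over all genes (5172 to 6070 higher, 5013 to 5937 lower) and stayed at 6 for the members, from 14 to 16 for TIP60-p400 and 11 to 13 for NuRD. Same-numbered libraries did not deviate together (correlations -0.125 to 0.068), so no pairing by replicate number was seen. These correlations pool all genes, and a shared batch or sort day behind the numbers was not tested. With the replicate block 9975 genes were called and the members stayed at 6. Low counts limit Nanog, Pou5f1, Sox2 and Esrrb.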
